A study of Homo sapiens with 12 samples.

Results

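Genes of amino acid synthesis, amino acid transport and cytosolic tRNA charging were followed in OVCAR8 ovarian cancer cells treated with EC359, trametinib or both. The 39 genes were taken by symbol from a list of this pathway, with no measured value in the rule, and are 39 of the 26485 genes of the annotation. All 39 passed the filter on low counts, among 14865 genes tested. They comprise 6 enzymes of serine, glycine and one-carbon synthesis, 3 of asparagine, aspartate and alanine synthesis, 2 of proline synthesis, 2 of transsulfuration, 8 transporter subunits and 18 cytosolic tRNA synthetases. OVCAR8 is an established human cell line, and all groups are this 1 line grown in RPMI with 10% serum. Cells received vehicle (control), 150 nM EC359, an inhibitor of the leukemia inhibitory factor receptor LIFR, 100 nM trametinib, a MEK inhibitor, or both agents at the same doses (combination). RNA was taken after 7 h, and polyadenylated RNA was sequenced in 3 libraries for each of the 4 groups. The labels do not say whether the libraries of a group came from separate cultures, so the p-values measure the spread between these libraries, which may be technical.

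A cell obtains its amino acids by making them and by importing them, and the aminoacyl-tRNA synthetases join each one to its tRNA for protein synthesis. Many of these genes share a control: when amino acids run short, or under other stresses, the cell makes more of the transcription factor ATF4, which binds C/EBP-ATF response elements near their start sites. ASNS, which makes asparagine, is the classical example of such a gene.

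Between 24790392 and 32467283 reads were counted per library, and none of the 39 genes was at 0 in any library. Levels are given as CPM (read counts relative to the TMM-normalized library size), a fold change is the log2 ratio fitted by edgeR ± its standard error, and a gene is said to have risen or fallen where the Benjamini-Hochberg adjusted p over all genes tested was under 0.05. The epithelial markers KRT7, KRT8 and KRT18 were at 961, 1860 and 933 CPM and PAX8 was at 100 CPM, while CDH1 and MUC16 were under 1 CPM. The leukocyte genes PTPRC and CD3E and the fibroblast gene DCN were at 0. COL1A1 carried nearly all of the fibroblast list, whose 4 genes summed to between 220 and 233 CPM with EC359, 314 and 336 in the combination, 415 and 436 in control and 514 and 526 with trametinib. COL1A2 was at most 0.0589 and LUM at most 1.17 CPM in any library, and a part of COL1A1-expressing cells in the results was not tested. Since the RNA came from bulk cultures, more cells that express a gene and more RNA per cell cannot be told apart. All fold changes against control share the same 3 control libraries.

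The promoters of these genes were searched for the letters of the C/EBP-ATF element core, because the pathway is known for it. RefSeq promoters on GRCh38.p14, each from 250 bases before to 50 bases after an annotated start, were at hand for 30 of the 39 genes. The core TGATGNAA, or TTNCATCA on the other strand, was found in 14 of those 30 genes (46.7%), against 1217 of all 27305 genes with a promoter (4.46%). By promoter, it was in 14 of 44 (31.8%) against 1270 of 35116 (3.62%). The windows below hold the matches of 9 of the 14 genes, each read 5′ to 3′ on the strand of the gene with the matched letters in capitals. The windows of GARS, TARS, IARS, NARS and CARS are not printed.
ASNS: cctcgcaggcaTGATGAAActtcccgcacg
SLC3A2: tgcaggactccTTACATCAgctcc
SLC1A4: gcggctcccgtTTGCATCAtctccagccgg
SLC7A1: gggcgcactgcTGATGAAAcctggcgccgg
SLC38A1: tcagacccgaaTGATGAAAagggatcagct
AARS: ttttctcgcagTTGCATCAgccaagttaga
MARS: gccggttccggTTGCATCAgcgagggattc
SLC1A5: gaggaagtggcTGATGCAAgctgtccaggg
GOT1: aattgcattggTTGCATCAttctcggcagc
The ASNS window, chr7:97872458-97872487 on the minus strand, lies before the start, with the match at bases -68 to -61. The SLC3A2 window, chr11:62881725-62881748 on the plus strand, belongs to 1 of 3 annotated starts and has its match at bases 38 to 45 after that start. The matches of SLC1A4 (chr2:64989381-64989410, plus strand, bases -7 to 1) and SLC38A1 (chr12:46266502-46266531, minus strand, bases -4 to 4) span the start itself, as does that of MARS (chr12:57488053-57488082, plus strand, bases -4 to 4). SLC7A1 (chr13:29595663-29595692, minus strand) has its match at bases 8 to 15 after the start. The matches of AARS (chr16:70289675-70289704, minus strand, from base -187), SLC1A5 (chr19:46784893-46784922, minus strand, from base -97) and GOT1 (chr10:99430804-99430833, minus strand, from base -198) lie farther upstream of the start used. ASNS, SLC1A4 and SLC38A1 have 2 annotated starts each. The match is at the upstream start in ASNS and at the downstream start in SLC1A4 and SLC38A1. SLC1A5 and SLC3A2 have 3 each, and in both the match is at the one farthest downstream. The windows of SLC1A4, SLC38A1, SLC1A5 and SLC3A2 thus lie within the gene as transcribed from an upstream start. Of the 14 genes with a match, 10 rose in the combination, 2 fell (SLC1A5 and NARS) and 2 did not pass the test (GOT1 and CARS). Of the 30 genes searched, 20 rose in the combination, so 10 of these 20 had no match. Over all genes tested, 35.0% rose and 34.7% fell in the combination. Whether a match goes with a rise was not tested. SLC38A2, CTH and SLC6A9, 3 of the 5 genes with the largest increases, were among those without these letters in the windows searched. The match is a description of the letters, and binding was not measured.

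**Figure D1:**
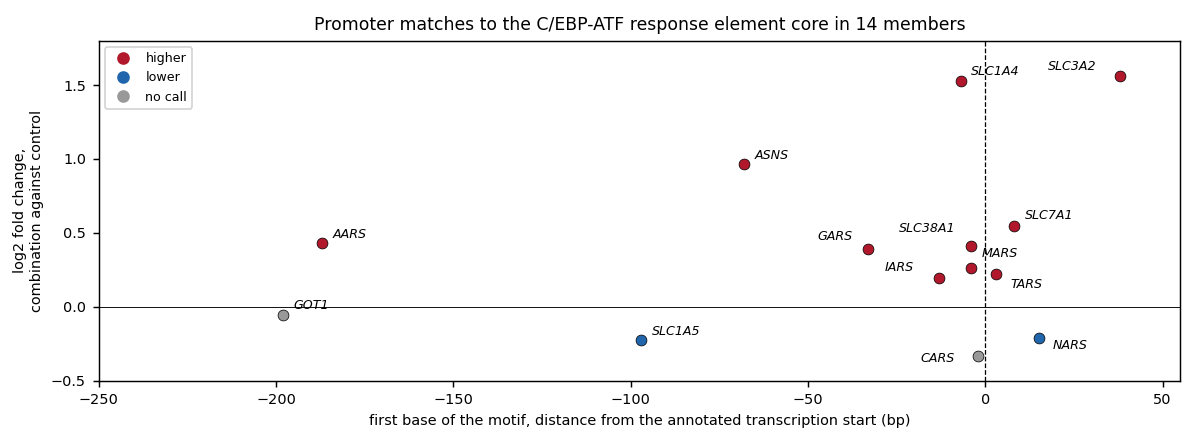
Position of the first base of the C/EBP-ATF element core from the annotated start (horizontal, bp) against the log2 fold change of the combination against control (vertical) for the 14 genes with a match; color gives the call. SLC1A4 and SLC3A2 are the highest at 1.53 and 1.56, while SLC1A5, NARS, GOT1 and CARS lie below 0.

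EC359 raised most of the pathway. Compared to control, 26 of the 39 genes rose (66.7%) and 4 fell (10.3%), against 30.8% of all genes tested that rose and 30.3% that fell. The median log2 fold change of the 39 was 0.22, against -0.01 for all genes tested. Changes of at least 2-fold were upward in 3 of the 39 (SLC38A2, SLC3A2 and SLC1A4) and downward in 0, against 4.19% and 2.79% of all genes tested. All 3 EC359 libraries lay above the controls for 26 of the genes and below them for 5, while the libraries did not overlap, in either direction, for 64.7% of all genes tested.
The combination gave similar counts. In it 24 of the 39 rose (61.5%) and 8 fell (20.5%), against 35.0% and 34.7% of all genes tested, and the median log2 fold change was 0.21 against -0.01. At least 2-fold, 5 rose (SLC38A2, CTH, SLC6A9, SLC3A2 and SLC1A4) and 0 fell, against 7.27% and 5.87%. Libraries lay above the controls for 23 genes and below for 9, against 71.8% of all genes without overlap in either direction.
With trametinib alone the pathway moved less and in both directions. There were 9 genes that rose and 8 that fell, against 13.0% and 15.2% of all genes tested, and the median log2 fold change was 0.01 against 0.00. No gene of the 39 passed with a 2-fold change, against 0.478% of all genes upward and 0.955% downward, and libraries lay above the controls for 12 genes and below for 11, against 40.1% without overlap.
Scaling by total counts alone moved the median log2 fold change of all genes to -0.15 with EC359 and -0.14 in the combination, which put the split of the 39 at 20 higher and 10 lower with EC359 and at 19 and 13 in the combination. With trametinib this scaling gave 12 higher and 6 lower. The 39 genes together summed to 5471 ± 19.2 CPM in the controls and, in the treated groups, to 7210 ± 21.6 (EC359), 5388 ± 17.2 (trametinib) and 7454 ± 67.0 CPM (combination; SD, n = 3 each).

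**Figure D2:**
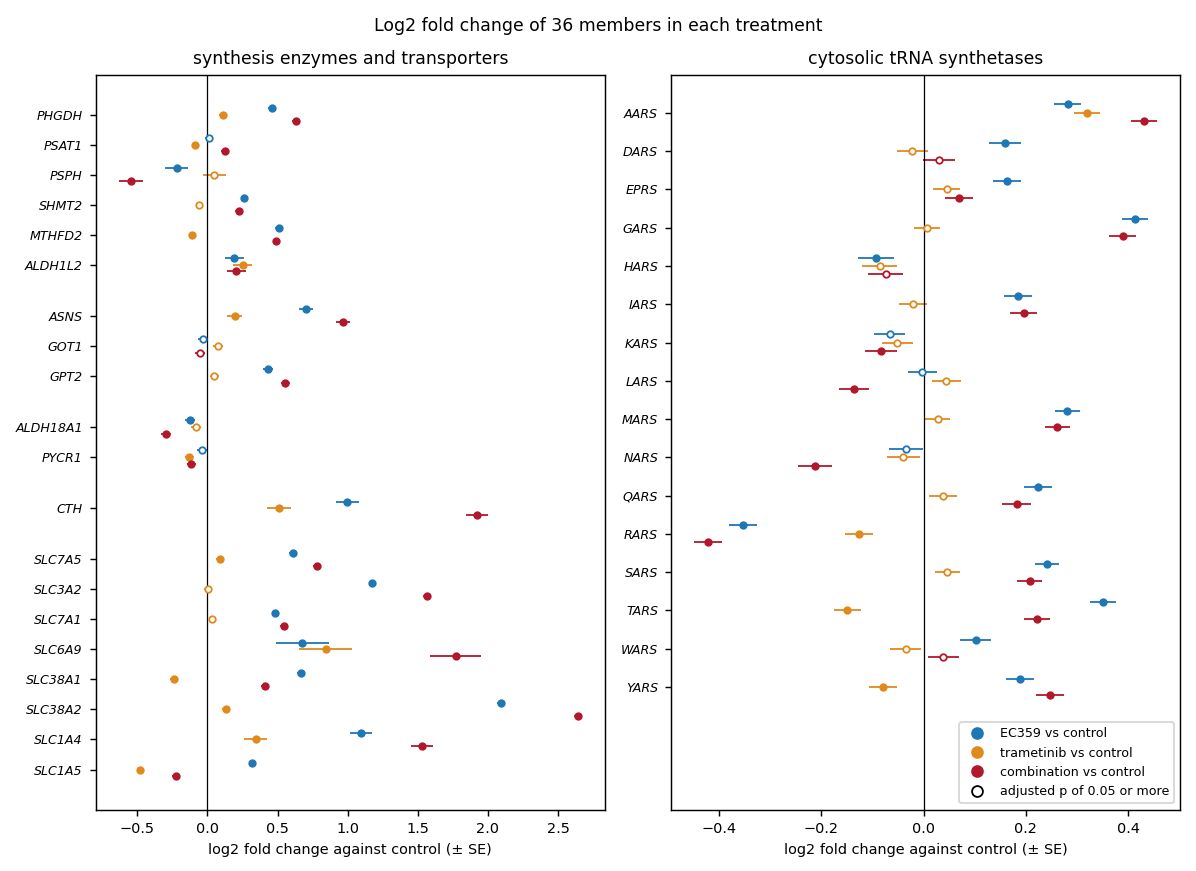
Log2 fold change against control (horizontal, ± SE) of 36 genes with EC359, trametinib and the combination, with enzymes and transporters on the left and cytosolic synthetases on the right (the horizontal scales differ). Filled points passed an adjusted p of 0.05. SLC38A2 lies farthest right at 2.64 in the combination, and the synthetases stay between -0.42 and 0.43. CBS, CARS and VARS are left out because their gene models span several loci.

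By role, the transporters had the largest median increase with EC359 and in the combination. Among single genes, the enzyme CTH (1.92) rose more in the combination than every transporter except SLC38A2. All 8 rose with EC359 (median log2 fold change 0.67), against 30.8% of all genes tested. In the combination 7 rose (87.5%, median of the 8 at 1.16) and 1 (SLC1A5) fell (12.5%), against 35.0% and 34.7% of all genes. With trametinib 4 rose (50%) and 2 fell (25%), against 13.0% and 15.2%. Together the 8 transporters summed to 1477 ± 19.9 CPM in the controls. Relative to that sum, EC359 gave 178.9% (2643 ± 10.4 CPM), trametinib 94.58% (1397 ± 3.88) and the combination 198.2% (2928 ± 48.3; SD, n = 3 each).
SLC38A2, on chromosome 12 from 46358188 to 46372862 in hg38, encodes SNAT2, a sodium-coupled importer of small neutral amino acids. Its level was 123.7, 118.8 and 129.4 CPM in the control libraries, 512.8, 543.2 and 532.8 under EC359, 138.8, 137.2 and 131.7 under trametinib, and 779.5, 766.6 and 779.5 in the combination. The groups followed each other without overlap, from control through trametinib and EC359 to the combination. The log2 fold change was 2.09 ± 0.03 with EC359 (adjusted p = 5.86e-51) and 2.64 ± 0.03 in the combination (adjusted p = 9e-56), a 6.25-fold rise, by edgeR's quasi-likelihood test (Benjamini-Hochberg adjusted). With trametinib it was 0.13 ± 0.03 (adjusted p = 0.000272 by the same edgeR test).
SLC3A2, on chromosome 11 from 62856012 to 62888883, encodes CD98, the heavy chain that brings the amino acid exchangers of the SLC7 family to the plasma membrane. Control libraries held 198.6, 195.4 and 196.2 CPM, EC359 libraries 449.8, 439.8 and 443.8, trametinib libraries 200.7, 193.7 and 196.5, and combination libraries 569.7, 583.4 and 590.6. Trametinib and control overlapped, and the combination lay above EC359, which lay above both. By edgeR's quasi-likelihood test the log2 fold change was 1.18 ± 0.02 with EC359 (adjusted p = 1.09e-43) and 1.56 ± 0.02 in the combination (adjusted p = 4.84e-50). For trametinib it was 0.00 ± 0.02 (adjusted p = 0.964, same edgeR test).
SLC7A5, the LAT1 light chain that pairs with CD98 to exchange large neutral amino acids, rose from 289.0 ± 8.78 CPM to 441.7 ± 11.7 with EC359 and 496.7 ± 19.4 in the combination (SD, n = 3 each). Its log2 fold changes were 0.61 and 0.78, and 0.09 with trametinib, which no longer passed without control replicate 1 (0.07). SLC7A1, an importer of arginine and lysine, rose by 0.48 with EC359 and 0.54 in the combination, and its trametinib value of 0.03 did not pass.
SLC1A4 (ASCT1), on chromosome 2 from 64988445 to 65023866, exchanges alanine, serine and other small neutral amino acids. It was at 7.57, 8.69 and 7.50 CPM in control, 17.7, 16.5 and 16.7 under EC359, 10.2, 9.23 and 10.7 under trametinib, and 22.3, 22.2 and 24.2 in the combination. All libraries of each treatment lay above all controls. The log2 fold changes were 1.10 ± 0.08 with EC359 (adjusted p = 2.24e-18), 0.35 ± 0.08 with trametinib (adjusted p = 0.000639) and 1.53 ± 0.08 in the combination (adjusted p = 3.3e-25) in edgeR's quasi-likelihood test (Benjamini-Hochberg adjusted).
SLC6A9 (GLYT1), a glycine importer on chromosome 1 from 43996483 to 44031492, had the lowest level among the transporters per length. Control libraries held 1.46, 1.17 and 1.32 CPM, EC359 libraries 1.65, 2.25 and 2.40, trametinib libraries 2.37, 2.39 and 2.34, and combination libraries 4.03, 4.43 and 5.04. The lowest EC359 library was close to the highest control, and the combination stood above all others. EdgeR's quasi-likelihood test gave log2 fold changes of 0.68 ± 0.19 with EC359 (adjusted p = 0.00177), 0.84 ± 0.19 with trametinib (adjusted p = 0.000282) and 1.77 ± 0.18 in the combination (adjusted p = 6.8e-13).
The glutamine transporters SLC38A1 (SNAT1) and SLC1A5 (ASCT2) moved in opposite directions under the single agents. SLC1A5, on chromosome 19 from 46774883 to 46788585, was at 277.7, 285.2 and 280.5 CPM in control and 350.7, 345.3 and 358.1 with EC359, against 196.4, 199.9 and 208.5 with trametinib and 244.5, 233.5 and 243.2 in the combination. The 4 groups did not overlap, and the combination lay between trametinib and control. Its log2 fold changes were 0.32 ± 0.03 with EC359, -0.48 ± 0.03 with trametinib and -0.23 ± 0.03 in the combination (adjusted p of 1.02e-16, 8.65e-23 and 2.47e-11 by edgeR's quasi-likelihood test (Benjamini-Hochberg adjusted)). SLC38A1 rose with EC359 by 0.67 and fell with trametinib by 0.24, and in the combination it rose by 0.41 on the log2 scale.

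**Figure D3:**
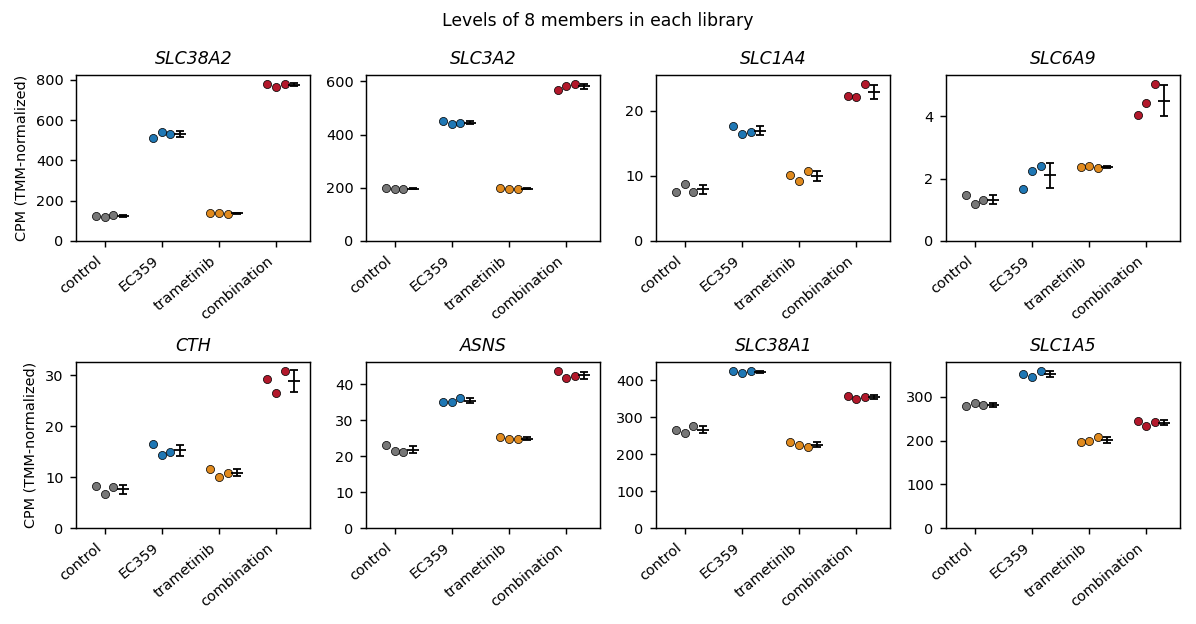
Level in CPM (vertical, from 0) of 8 genes in the 3 libraries of each group (points), with the mean ± SD beside them. SLC38A2 and SLC3A2 step up from control to EC359 and again to the combination, while SLC1A5 with trametinib, at 196 to 209 CPM, lies below every control.

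Among the 13 synthesis enzymes, 7 rose (53.8%) and 2 fell (15.4%) with EC359, against 30.8% and 30.3% of all genes tested. With trametinib 4 rose (30.8%) and 3 fell (23.1%), against 13.0% and 15.2% of all genes. In the combination 8 rose (61.5%) and 3 fell (23.1%), against 35.0% and 34.7%. CTH, on chromosome 1 from 70411218 to 70439851, is cystathionine gamma-lyase, which releases cysteine at the end of the transsulfuration route. Its level was 8.21, 6.63 and 8.01 CPM in control, 16.5, 14.3 and 14.9 under EC359, 11.5, 10.1 and 10.9 under trametinib, and 29.2, 26.5 and 30.7 in the combination. All treated libraries lay above the controls, and the combination lay above both single agents. The log2 fold change was 0.998 ± 0.08 with EC359 (adjusted p = 1.02e-15), just short of 2-fold at 1.997-fold, 0.51 ± 0.08 with trametinib (adjusted p = 2.08e-06) and 1.92 ± 0.08 in the combination (adjusted p = 1.02e-28) in edgeR's quasi-likelihood test (Benjamini-Hochberg adjusted).
ASNS, asparagine synthetase, on chromosome 7 from 97852117 to 97872542, was just under 2-fold in the combination. Control libraries held 23.1, 21.4 and 21.1 CPM, EC359 libraries 35.16, 35.05 and 36.25, trametinib libraries 25.3, 24.7 and 24.8, and combination libraries 43.6, 41.7 and 42.3. None of the groups overlapped. The log2 fold changes by edgeR's quasi-likelihood test were 0.70 ± 0.05 with EC359 (adjusted p = 7.27e-18), 0.19 ± 0.05 with trametinib (adjusted p = 0.00354) and 0.96 ± 0.05 in the combination (adjusted p = 2.84e-24). GPT2, the mitochondrial alanine transaminase, rose by 0.43 with EC359 and 0.56 in the combination. GOT1, the cytosolic aspartate transaminase, did not pass with any treatment, at 0.08 with trametinib and -0.06 in the combination, but with total counts alone it passed as lower with EC359 (-0.16) and in the combination (-0.19) and as higher with trametinib (0.10).
The serine route did not move as 1 block. PHGDH, which takes the first step from glycolysis to serine, rose from 137.7 ± 2.92 CPM to 189.2 ± 3.27 with EC359 and 213.2 ± 4.71 in the combination (SD, n = 3 each), with log2 fold changes of 0.46 and 0.63. PSAT1, the next enzyme, had a log2 fold change of 0.01 with EC359 and 0.13 in the combination, and with total counts alone both turned negative (-0.12 and -0.01). With trametinib PSAT1 fell by 0.09 on the log2 scale. That call was lost without control replicate 1 or trametinib replicate 2, at -0.08 in each, and with total counts alone (-0.06).
PSPH, the phosphatase that completes serine, went the other way. It was at 13.03, 12.46 and 11.98 CPM in control, 10.99, 10.67 and 10.48 under EC359, 11.3, 14.7 and 12.9 under trametinib, and 8.42, 8.27 and 8.94 in the combination. EC359 and combination libraries lay below all controls, and trametinib overlapped the controls. The log2 fold change was -0.55 ± 0.09 in the combination (adjusted p = 1.69e-07) and -0.22 ± 0.08 with EC359 (adjusted p = 0.0218), both from edgeR's quasi-likelihood test (Benjamini-Hochberg adjusted). The EC359 call was lost in 4 of 14 alternatives, which were DESeq2 (-0.21) and leaving out control replicate 1 (-0.19), EC359 replicate 2 (-0.21) or EC359 replicate 3 (-0.20).
The mitochondrial one-carbon enzymes rose. SHMT2, which makes glycine from serine, had log2 fold changes of 0.26 with EC359 and 0.22 in the combination, and MTHFD2, the next enzyme of the folate cycle, had 0.51 and 0.49. Trametinib gave MTHFD2 a fall of 0.11. ALDH1L2, which oxidizes formyl-folate in mitochondria, had 0.19 with EC359, 0.25 with trametinib and 0.21 in the combination, and with total counts alone its EC359 and combination values (0.06 and 0.07) did not pass.
Neither proline enzyme rose. ALDH18A1, which starts proline synthesis from glutamate, fell by 0.30 in the combination and by 0.12 with EC359, and the EC359 call was lost without EC359 replicate 2 (-0.08). PYCR1, which completes proline, fell by 0.13 with trametinib and by 0.11 in the combination. Their summed level was 173.5 ± 2.62 CPM in control and 151.2 ± 4.81 in the combination (SD, n = 3 each).

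The cytosolic tRNA synthetases changed by less. Their median log2 fold change was 0.16 with EC359, -0.02 with trametinib and 0.13 in the combination. Of 18, 11 rose (61.1%) and 2 fell (11.1%) with EC359, against 30.8% and 30.3% of all genes tested. With trametinib 1 rose (5.56%) and 3 fell (16.7%), against 13.0% and 15.2% of all genes. In the combination 9 of the 18 rose (50%) and 4 fell (22.2%), against 35.0% and 34.7%. Together they summed to 2860 ± 10.7 CPM in the controls, and EC359 libraries reached 3215 ± 8.04, trametinib libraries 2885 ± 17.6 and combination libraries 3139 ± 38.9 CPM (SD, n = 3 each). No synthetase passed with a 2-fold change.
AARS, the alanyl-tRNA synthetase on chromosome 16 from 70252394 to 70289509, was the only one of the 18 to rise with trametinib alone by the main test. It stood at 196.8 ± 2.95 CPM in the controls, at 239.3 ± 6.07 under EC359, at 245.4 ± 1.63 under trametinib and at 265.2 ± 6.65 in the combination (SD, n = 3 each). The log2 fold changes were 0.28 ± 0.03, 0.32 ± 0.03 and 0.43 ± 0.03. With total counts alone, EPRS (0.07) and SARS (0.07) also passed as higher with trametinib. GARS, the glycyl synthetase, rose by 0.41 with EC359 and 0.39 in the combination, TARS (threonine) by 0.35 and 0.22, and MARS (methionine) by 0.28 and 0.26.
Smaller rises with EC359 were found in SARS (0.24), QARS (0.22), YARS (0.19), IARS (0.18), EPRS (0.16), DARS (0.16) and WARS (0.10), which charge serine, glutamine, tyrosine, isoleucine, glutamate with proline, aspartate and tryptophan. With total counts alone the WARS value turned negative (-0.03), and those of YARS (0.05), IARS (0.05), EPRS (0.03) and DARS (0.03) no longer passed. In the combination SARS (0.21), QARS (0.18), IARS (0.20), YARS (0.25) and EPRS (0.07) rose, though EPRS turned negative with total counts alone (-0.07), as did the uncalled DARS (-0.11) and WARS (-0.10), and IARS (0.06) and QARS (0.04) then no longer passed. The EPRS call was also lost without control replicate 2 (0.05) or combination replicate 1 (0.04).
RARS, the arginyl synthetase on chromosome 5 from 168486458 to 168519304, fell with each treatment. Control libraries held 175.7, 180.9 and 175.7 CPM, EC359 libraries 138.0, 140.4 and 138.4, trametinib libraries 165.9, 163.6 and 158.5, and combination libraries 133.5, 134.0 and 130.2. Every treated library lay below every control. The log2 fold changes were -0.35 ± 0.03, -0.13 ± 0.03 and -0.42 ± 0.03 (adjusted p of 9.14e-17, 0.000197 and 5.48e-20 by edgeR's quasi-likelihood test (Benjamini-Hochberg adjusted)).
In the combination NARS (asparagine, -0.21), LARS (leucine, -0.14) and KARS (lysine, -0.08) also fell, and the KARS call was lost without combination replicate 3 (-0.06). HARS (histidine) fell with EC359 by 0.09, a call lost under DESeq2 (-0.09) and without control replicate 2 (-0.07) or EC359 replicate 1 (-0.06). Trametinib lowered TARS by 0.15 and YARS by 0.08. The YARS call was lost without control replicate 1 (-0.08) or 2 (-0.06) or trametinib replicate 1 (-0.07) or 3 (-0.07). It was also lost with total counts alone (-0.05).
VARS, CARS and CBS passed in no comparison, and their values are uncertain. In the annotation the VARS model spans 7 sequences (chromosome 6 and alternative versions of it), the CARS model 2 and the CBS model 2 places on chromosome 21 that lie 36585151 bp apart, and how reads were divided among these copies was not tested. VARS was between 2.40 and 4.43 CPM in 11 libraries and at 43.2 CPM in trametinib replicate 3. CARS ranged from 7.29 to 17.8 CPM and CBS from 18.5 to 46.9 CPM, and in both genes each treated group overlapped the controls.

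**Figure D4:**
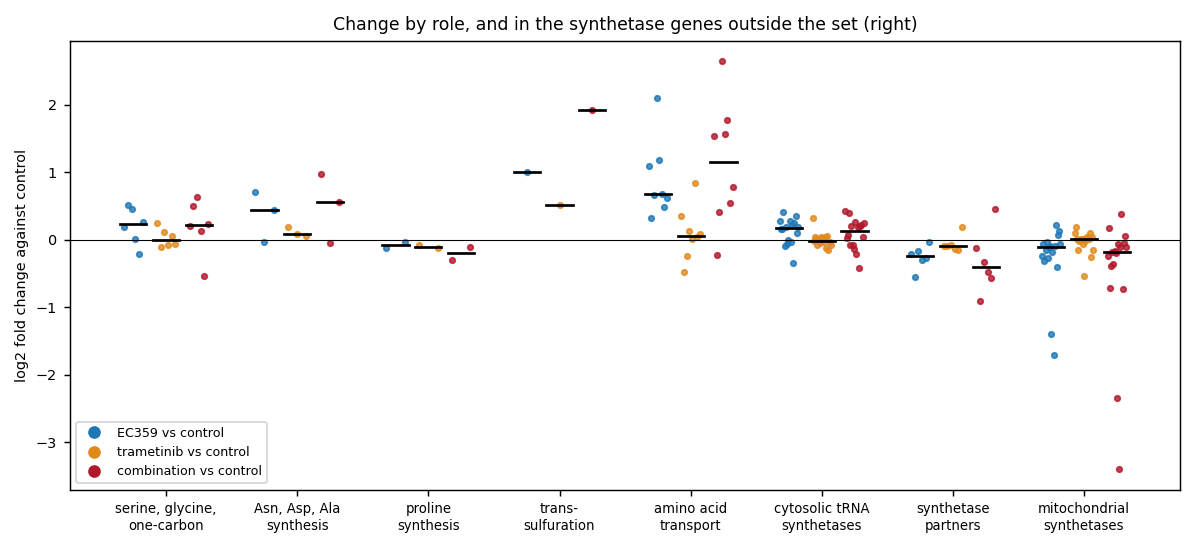
Log2 fold change against control (vertical) of each gene (points) with the median (bars) by role, for the 36 genes. At the right are 6 other genes of cytosolic tRNA charging (labeled synthetase partners, FARSA and FARSB included) and 17 mitochondrial synthetases, none of them among the 39. Transporters reach 2.64 in the combination, and the mitochondrial synthetases PARS2 and MARS2 lie lowest at -3.40 and -2.35.

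Other genes of amino acid use, from lists that hold none of the 39, did not all move with them. Of 17 mitochondrial tRNA synthetases, 2 rose and 11 fell with EC359 (11.8% and 64.7%, against 30.8% and 30.3% of all genes tested), and 2 rose and 12 fell in the combination (11.8% and 70.6%, against 35.0% and 34.7%; median log2 fold change -0.18). PARS2, for proline, went from 9.47 ± 0.995 CPM in control to 2.90 ± 0.0595 with EC359 and 0.892 ± 0.0926 in the combination, and MARS2, for methionine, from 17.6 ± 0.784 to 6.71 ± 0.596 and 3.45 ± 0.0905 (SD, n = 3 each). TARS2 fell by 0.73 on the log2 scale in the combination. The cytosolic MARS and TARS rose in the same libraries. Of 6 other genes of cytosolic tRNA charging, 5 fell and 1 (TARSL2, 0.46) rose in the combination. These are 83.3% and 16.7%, against 34.7% and 35.0% of all genes tested. AIMP2, a scaffold of the synthetase complex, fell (-0.91). FARSB (-0.57) and FARSA (-0.47), the subunits of the cytosolic phenylalanyl synthetase, which is not among the 39 genes, fell too. FARSB and FARSA also fell with EC359 (-0.28 and -0.31) and with trametinib (-0.16 and -0.14).
Among 19 other amino acid transporters tested, 11 rose (57.9%) and 4 fell (21.1%) in the combination (median 0.15), against 35.0% and 34.7% of all genes tested. SLC7A11, the cystine importer that also pairs with CD98, had a log2 fold change of 2.67, and SLC6A6, the taurine transporter, rose from 36.8 ± 0.630 to 89.7 ± 3.10 CPM (SD, n = 3 each). SLC43A2 was at -1.41 but on few reads (1.40 ± 1.01 CPM in control; SD, n = 3), its call was lost in 8 of 14 alternatives, and without control replicate 3 its value was -0.73. Of 21 other enzymes tested, 6 rose (28.6%) and 10 fell (47.6%) in the combination (median -0.02), against the same shares of all genes. MAT2A, which makes S-adenosylmethionine from methionine, fell from 252.7 ± 4.67 to 103.4 ± 3.93 CPM (SD, n = 3 each). GCSH (-0.75) and GLDC (-0.71), of the glycine cleavage system, also fell, while AMT of the same system rose (0.57 ± 0.25). GLDC rests on few reads (1.14 ± 0.226 CPM in control; SD, n = 3), and the AMT call was not followed through the alternatives. The GLDC call was lost in 5 of 14 alternatives, including without control replicate 2 (-0.59) or 3 (-0.67) and without combination replicate 1 (-0.65) or 3 (-0.51).
Of 9 amino acid sensing genes tested, 4 rose and 4 fell in the combination (44.4% each, against 35.0% and 34.7% of all genes tested). SESN2, a leucine-binding inhibitor of mTORC1, rose from 24.6 ± 0.513 CPM to 90.0 ± 1.87 with EC359 and 136.4 ± 2.09 in the combination, and stood at 25.3 ± 0.0320 with trametinib (SD, n = 3 each). SESN1 rose by 0.57 on the log2 scale in the combination, and IMPACT, an inhibitor of the kinase GCN2, fell by 0.56.

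The combination was then compared with each single agent. Compared to EC359, 12 of the 39 were higher and 10 lower in the combination (median log2 difference -0.02, against 24.1% and 25.2% of all genes tested). Among transporters 6 were higher and 2 lower, and among synthetases 1 was higher and 6 were lower. SLC6A9 (1.09 ± 0.17), CTH (0.92 ± 0.07), SLC38A2 (0.55 ± 0.03), SLC1A4 (0.43 ± 0.07), SLC3A2 (0.39 ± 0.02) and ASNS (0.26 ± 0.05) were higher with both agents than with EC359 alone. The difference of SLC7A1 (0.06 ± 0.02) passed as well, but was lost in 6 of 14 alternatives, including without EC359 replicate 1 (0.06) or 3 (0.05) and without combination replicate 1 (0.04) or 3 (0.06). Among the genes that passed, SLC1A5 (-0.55 ± 0.03), PSPH (-0.33 ± 0.09) and SLC38A1 (-0.26 ± 0.02) were the farthest below EC359. RARS was lower by 0.07, a call lost in 4 of 14 alternatives, including without EC359 replicate 2 (-0.06) or 3 (-0.07) or combination replicate 3 (-0.06).
Compared to trametinib, 24 were higher and 6 lower (median 0.23, against 35.3% and 32.9% of all genes tested), or 18 and 13 with total counts alone. All 8 transporters were higher, SLC1A5 included at 0.25 ± 0.03. The synthetase AARS was 0.11 ± 0.03 higher, but with total counts alone its value turned negative (-0.05), as did those of QARS (-0.02), SARS (-0.00) and WARS (-0.09). The WARS call at 0.07 was lost or reversed in 8 of 14 alternatives. Among them were leaving out trametinib replicate 1 (0.08) or 2 (0.06) or combination replicate 1 (0.07) or 3 (0.07).

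Whether both agents gave more or less than the sum of their separate log2 effects was tested as an interaction. It was positive in 5 of the 39 and negative in 5, against 14.4% and 15.9% of all genes tested, with a median of 0.03. With total counts alone 5 were positive and 11 negative. Among those that passed, SLC38A2 (0.42 ± 0.04), CTH (0.41 ± 0.11) and SLC3A2 (0.38 ± 0.03) had the largest positive values, and the sum of their single effects was exceeded 1.336-fold, 1.328-fold and 1.306-fold. ASNS (0.07 ± 0.07), SLC1A4 (0.09 ± 0.11) and SLC6A9 (0.25 ± 0.26) did not pass, which does not show that their effects were additive. AARS, which rose with each agent alone, had a negative value of -0.17 ± 0.04.

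**Figure D5:**
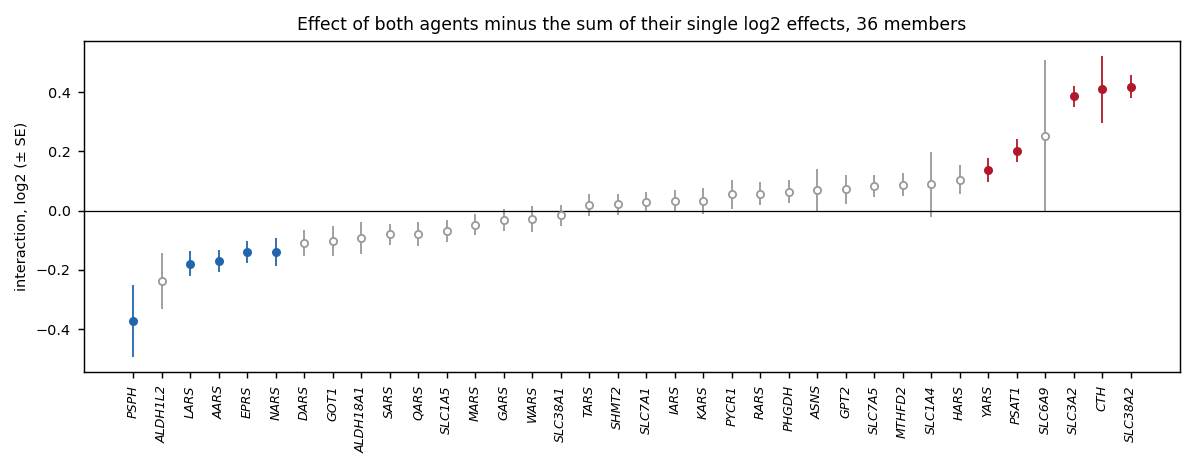
Interaction (vertical, log2 ± SE) of 36 genes in order, where 0 is the sum of the single log2 effects; red and blue points passed an adjusted p of 0.05 as positive and negative, and open grey points did not. PSPH is lowest at -0.37, and SLC3A2, CTH and SLC38A2 are highest at 0.38 to 0.42.

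Levels were compared between genes per kilobase of exon (RPKM). In control SHMT2 was highest at 102.1 ± 1.87 RPKM, followed by MARS at 95.7 ± 2.29, SLC1A5 at 87.7 ± 1.19 and RARS at 83.0 ± 1.39 (SD, n = 3 each). TARS (68.4 ± 1.21), PHGDH (68.3 ± 1.45), SLC3A2 (67.8 ± 0.578) and QARS (67.0 ± 2.55) followed MTHFD2 (75.4 ± 0.858), and their RPKM levels differed by less than their spread. SLC6A9 was at 0.358 ± 0.0394 RPKM, the lowest of the genes with a single-locus model. In the combination the order was led by SLC3A2 at 200.3 ± 3.66 RPKM, which was in place 8 in control, and SLC38A2 at 158.7 ± 1.52, which was in place 28. SHMT2 (119.2 ± 0.845) and MARS (114.8 ± 1.20) then took places 3 and 4, and SLC1A5 was in place 12 at 75.0 ± 1.88 RPKM.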

How the data were processed

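RNA of 12 OVCAR8 libraries (4 groups of 3) was analysed. The deposited values are estimated counts (expected counts) per gene, not normalized: per the file headers, the authors used featureCounts 1.5.0-p1 for read pairs of the reverse strand, required a mapping quality of at least 2, took genes from an hg38 annotation, and gave each gene a fraction of any read that also mapped or overlapped elsewhere. HISAT2 is named in the submitters' processing notes, with no version given in the sources used here. Between 12.4% and 15.1% of a library's genes held a value that was not whole, and all were rounded. A mapping quality filter can discard reads placed equally well on several copies. In this annotation VARS and CARS have alternative sequences, while CBS has places far apart on the same chromosome. The part of this filter in their values was not tested.

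In R 4.3.3 with edgeR 4.0.16, filterByExpr at a minimum count of 10 and a total of 15 kept 14865 genes, TMM factors were 0.947 to 1.06, and the 4 groups shared 1 quasi-likelihood fit (robust) with Benjamini-Hochberg adjustment. The biological coefficient of variation was 3.95%. Calls had an adjusted p under 0.05. The depth of 24790392 to 32467283 reads puts the upper limit for a count of 0 at 0.0883 to 0.127 CPM (3 counts, for counting error only). RPKM used the annotation's exon lengths. The members and gene lists were chosen with earlier results of these data known. All members are described, those changed at least 2-fold with every library, and from each other list at most the 3 genes with the largest change in the combination. AMT is named in addition, beside GCSH and GLDC, and so is TARSL2, beside FARSA and FARSB. PSPH, RARS, SLC1A5 and ASNS are given by library as well, chosen after their values were seen. Same-numbered libraries did not deviate together (Pearson's r across genes from -0.0669 to 0.0304 over 18 pairs). Results were recomputed with DESeq2 1.42.0, with DESeq2 size factors in the edgeR model, by total counts, with unrounded counts, under other filters, with only the groups compared, with a replicate block and without each library, and the model was tested on simulated data. Promoters came from RefSeq (GRCh38.p14).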

Additional observations from a re-analysis of the deposited data

Results flagged for a closer look

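In 10 of the 39 genes the agents given together moved the level by more or less than their single log2 effects add up to, a difference between groups by edgeR's quasi-likelihood test (Benjamini-Hochberg adjusted). The 5 positive and 5 negative values (12.8% of the 39 each) stand beside 14.4% and 15.9% of all genes tested. The value was positive for SLC38A2 (0.4177 ± 0.0382), CTH (0.4097 ± 0.113), SLC3A2 (0.385 ± 0.0338), PSAT1 (0.2028 ± 0.0395) and YARS (0.1372 ± 0.0391). It was negative for NARS (-0.1385 ± 0.047), EPRS (-0.1394 ± 0.0379), AARS (-0.1698 ± 0.0363), LARS (-0.1787 ± 0.0412) and PSPH (-0.3736 ± 0.122). The adjusted p from edgeR ran from 9.56e-14 for SLC3A2 to 0.0197 for NARS. The NARS call was lost without control replicate 3 (-0.13), EC359 replicate 3 (-0.12) or combination replicate 3 (-0.09), and the PSPH call without trametinib replicate 2 (-0.28). The other 8 genes passed under each of their 19 alternatives. The shares of the 39 are no higher than those of all genes tested, and whether anything sets these genes apart was not tested.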

How the results depend on the processing

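Over the 39 genes, 6 comparisons and all alternatives, 3345 values stayed on their side of the threshold (values that passed in neither setting could change sign), 60 newly passed, 51 no longer passed and 15 that passed in at least 1 of the settings changed sign. The replicate block left every call on the 39 genes as it was (234 of 234), with 26 higher and 4 lower with EC359 and 24 and 8 in the combination, and only 1 of 12 libraries correlated best with its own number. Scaling by total counts alone moved most. It put the median of all genes at -0.146 with EC359, -0.144 in the combination and -0.16 in the combination against trametinib. With EC359 it gave 10 lower genes in place of 4 and a median of 0.08909, in the combination 13 lower in place of 8 and a median of 0.06827, and against trametinib 13 lower in place of 6 and a median of 0.06976. It turned the sign of PSAT1 (-0.1249) and WARS (-0.03212) with EC359, of PSAT1 (-0.01263), DARS (-0.1095), EPRS (-0.06967) and WARS (-0.1002) in the combination, and, against trametinib, of PYCR1 (-0.1492), AARS (-0.052), DARS (-0.1128), EPRS (-0.1399), HARS (-0.1526), QARS (-0.01996), SARS (-0.002916) and WARS (-0.09051). Negative interactions numbered 11 with total counts and 8 with the size factors of DESeq2, in place of 5. DESeq2 gave 2 lower genes with EC359. Leaving out 1 library gave 2 to 4 lower genes with EC359, with 2 without EC359 replicate 2, and a median between 0.2083 and 0.2522. Without CBS, CARS and VARS, an alternative added after seeing the data, that median was 0.2516. VARS, against trametinib, ran from -2.582 without trametinib replicate 1 to 0.5562 without trametinib replicate 3, and was -2.06 with all libraries. The cause of these shifts beyond the settings themselves was not tested. Depth did not bring any of the 39 genes to 0. Among the genes with a single-locus model, SLC6A9, SLC1A4, CTH and PSPH had the lowest CPM in control and the largest standard errors. Those of VARS, CARS and CBS were larger still.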
